A study of Caenorhabditis elegans with 2 samples.

Results

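The genes described here were chosen by symbol, as transcription factors and related regulators of kinds that assign embryonic cells of Caenorhabditis elegans to lineages. The data are regions bound by the tagged nuclear hormone receptor NHR-12 in chromatin immunoprecipitation with sequencing (ChIP-seq). Members were all protein-coding genes whose symbol starts with ceh-, hlh-, tbx-, elt- or end-, or equals med-1, med-2, pal-1, pha-4, skn-1 or pie-1, which gave 121 of 19985 protein-coding genes in the Ensembl annotation. There were 63 homeobox genes (ceh-), 25 basic helix-loop-helix (bHLH) genes (hlh-), 19 T-box genes (tbx-), 10 GATA-type genes (elt-, end- and med-) and 4 single regulators. Symbols were distinct for all but tbx-30, which 2 of the T-box genes carry in that annotation. The rule used names only, and no measured value. Whether each member acts in embryonic lineage choice was not checked, and lineage factor genes is used below as a name for the set.

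There was 1 group: whole embryos of mixed stage and pooled sex, from strain OP318, which carries unc-119(ed3) on chromosome III and the insertion wgIs318 expressing eGFP-tagged NHR-12. It had 2 biological replicates, listed as separate biosamples without saying whether they were separate cultures, and the antibody label names nhr-12 while the description names the eGFP fusion. No second condition was given, the labelled control was not analysed here, and whole embryos mix all lineages and stages, so a region used in a few cells cannot be told apart from one used weakly in many. The labels do not give the promoter or cells that drive the transgene.

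Lineage choice in this embryo starts from maternal proteins that are divided unequally among the first cells. SKN-1 directs the EMS cell towards endoderm and mesoderm by switching on med-1 and med-2, which switch on end-1 and end-3, and these hand over to elt-7 and elt-2 in the intestine. PAL-1, a Caudal-type factor, acts in the C and D descendants, PIE-1 keeps the germline precursors from transcribing, and PHA-4, a FoxA factor, specifies pharynx. Homeobox, T-box and bHLH factors then assign tissue and neuron types.

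The authors deposited 28574 candidate regions called on the pooled replicates, 30000 called on each replicate, and 249 thresholded peaks, the subset that passed a comparison of replicates. Each region carries a signal, the authors' enrichment value, whose scale is not stated and whose size is not compared between lists; a rank of 1 is the largest signal in a list. The start window of a gene reached 1000 bp upstream and 200 bp downstream of its start; a gene with a summit there had a candidate, and its value is the largest signal among them. The lists hold no read counts, so depth and the precision of a signal are unknown. The tagged gene nhr-12 had no candidate in its own start window in any list.

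Lineage factor genes held candidates near their starts about as often as protein-coding genes as a whole, and nearly all of these fell below the thresholded peaks in signal. A pooled candidate was found at 46 of the 121 (38%), against 35.7% of all protein-coding genes. A thresholded peak was found at 1, ceh-38 (0.826%, against 0.946% of all protein-coding genes). The same gene was the 1 member with a candidate among the 1000 largest pooled signals (0.826%, against 2.80%). The median of the largest pooled signal was 10.95 over the 46 members with a candidate and 11.06 over the 7138 protein-coding genes with one. Of the 46, 12 lay above the upper quartile of those 7138 genes (14.1) and 15 at or below the lower quartile (9.21). No test of these shares was made, since members are not replicates.

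**Figure D1:**
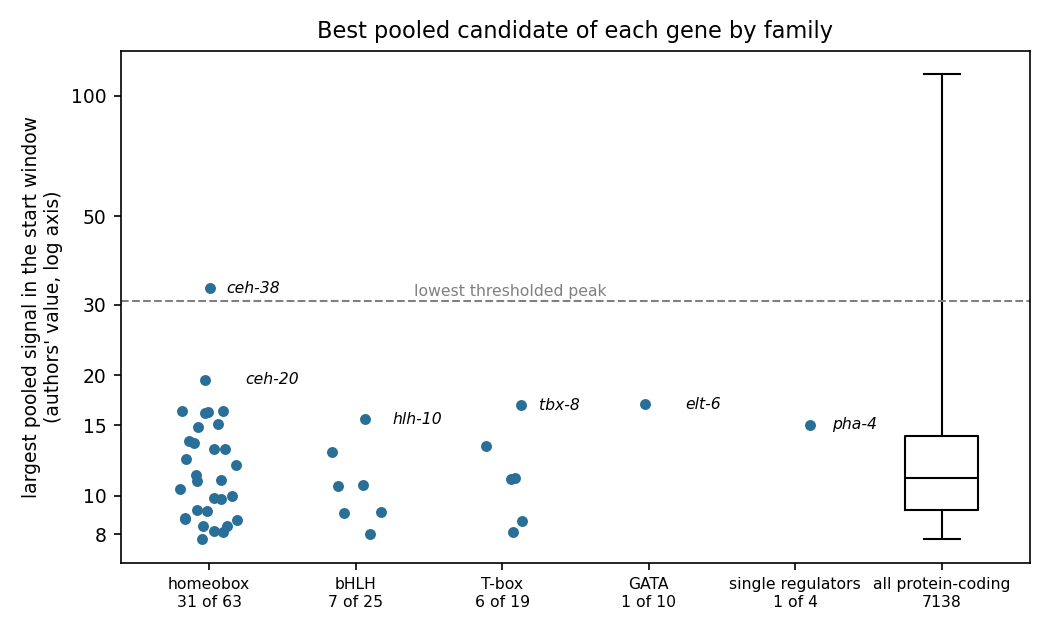
Largest pooled signal in the start window (log axis) of each member with a candidate, by family, with the number of genes with a candidate of all genes in the family. The box gives the quartiles and the whiskers the full range over the 7138 protein-coding genes with a candidate, and of the members only ceh-38, at 33.1, lies above the lowest thresholded peak, at 30.7.

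The following sequences come from the regions on which the results turn, in genes of each family but GATA. All but that of ceh-38 reach 100 bp to each side of the summit, and all are read 5′ to 3′ on the gene's strand from the RefSeq copy of the assembly. Capitals mark matches, on either strand, to any of 9 motifs: GATAA (GATA factors), CANNTG and the special case CACGTG (bHLH factors), TAATTA (homeodomains), AGGTGT (T-box factors), TGTTTAC (forkhead factors), AGGTCA (a nuclear receptor half-site), and CTGCGTCT and GAGAGAGA, elements found at worm promoters. AGGTGT and CANNTG can overlap. The ceh-38 sequence is the part of its peak after the 5′ untranslated stretch and leaves out the summit, which lies in that stretch, and that of ceh-43 is its upstream region.
skn-1 intron, chrIV:5657206-5657406, minus strand: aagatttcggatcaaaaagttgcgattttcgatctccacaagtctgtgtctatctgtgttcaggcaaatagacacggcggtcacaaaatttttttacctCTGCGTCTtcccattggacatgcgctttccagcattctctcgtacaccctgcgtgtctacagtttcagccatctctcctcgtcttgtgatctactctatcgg
ceh-38, chrII:6951705-6951848, plus strand: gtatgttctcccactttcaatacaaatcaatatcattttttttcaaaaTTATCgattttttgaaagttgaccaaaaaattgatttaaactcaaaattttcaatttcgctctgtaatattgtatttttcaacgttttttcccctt
ceh-43 upstream, chrIII:4451288-4451488, minus strand: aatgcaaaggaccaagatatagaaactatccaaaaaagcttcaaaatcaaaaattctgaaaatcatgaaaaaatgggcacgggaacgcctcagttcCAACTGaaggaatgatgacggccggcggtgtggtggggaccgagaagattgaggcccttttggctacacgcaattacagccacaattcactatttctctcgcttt
ceh-20, chrIII:6978979-6979179, plus strand: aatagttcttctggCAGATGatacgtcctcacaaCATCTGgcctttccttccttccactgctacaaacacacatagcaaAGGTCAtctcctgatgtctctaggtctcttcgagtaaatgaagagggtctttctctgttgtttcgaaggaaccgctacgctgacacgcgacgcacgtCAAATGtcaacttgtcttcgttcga
pha-4, chrV:20752633-20752833, plus strand: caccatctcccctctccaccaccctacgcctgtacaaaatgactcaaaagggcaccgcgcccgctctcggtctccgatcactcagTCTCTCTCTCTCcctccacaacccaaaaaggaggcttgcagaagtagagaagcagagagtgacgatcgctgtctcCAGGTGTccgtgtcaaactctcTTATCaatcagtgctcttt
hlh-1, chrII:4518287-4518487, plus strand: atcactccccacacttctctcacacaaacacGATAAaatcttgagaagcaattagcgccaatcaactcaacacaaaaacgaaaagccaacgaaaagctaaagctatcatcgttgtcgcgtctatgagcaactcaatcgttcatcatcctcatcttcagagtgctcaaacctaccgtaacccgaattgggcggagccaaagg
ceh-13, chrIII:7554898-7555098, plus strand: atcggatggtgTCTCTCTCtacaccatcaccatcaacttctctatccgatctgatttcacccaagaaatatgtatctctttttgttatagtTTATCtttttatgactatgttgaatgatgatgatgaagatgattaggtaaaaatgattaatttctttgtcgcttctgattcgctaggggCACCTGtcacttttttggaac
tbx-8, chrIII:10346588-10346788, plus strand: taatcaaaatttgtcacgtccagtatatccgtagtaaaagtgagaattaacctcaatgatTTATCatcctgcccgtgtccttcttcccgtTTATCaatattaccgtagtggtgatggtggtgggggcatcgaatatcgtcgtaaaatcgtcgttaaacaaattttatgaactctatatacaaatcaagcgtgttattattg

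Counts in the single replicates lay on both sides of the background. In replicate 1, 39 members had a candidate (32.2%, against 37% of all protein-coding genes), and in replicate 2, 55 had one (45.5%, against 35.7%). Candidates of the pooled list and of both replicates stood in the start window of 18 members (14.9%, against 15.2%). The best pooled candidate itself was overlapped by a candidate of both replicates at 14 members (11.6%, against 13.6%). At 9 it was overlapped in replicate 1 alone, at 18 in replicate 2 alone and at 5 in neither, a split not given here over all protein-coding genes. Over the 14, Spearman's rho between replicate signals was -0.17, against 0.26 over the 2722 protein-coding genes with such a candidate; these are descriptions across genes. No candidate in any of the 3 lists was found at 47 members (38.8%, against 42.1% of all protein-coding genes).

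**Figure D2:**
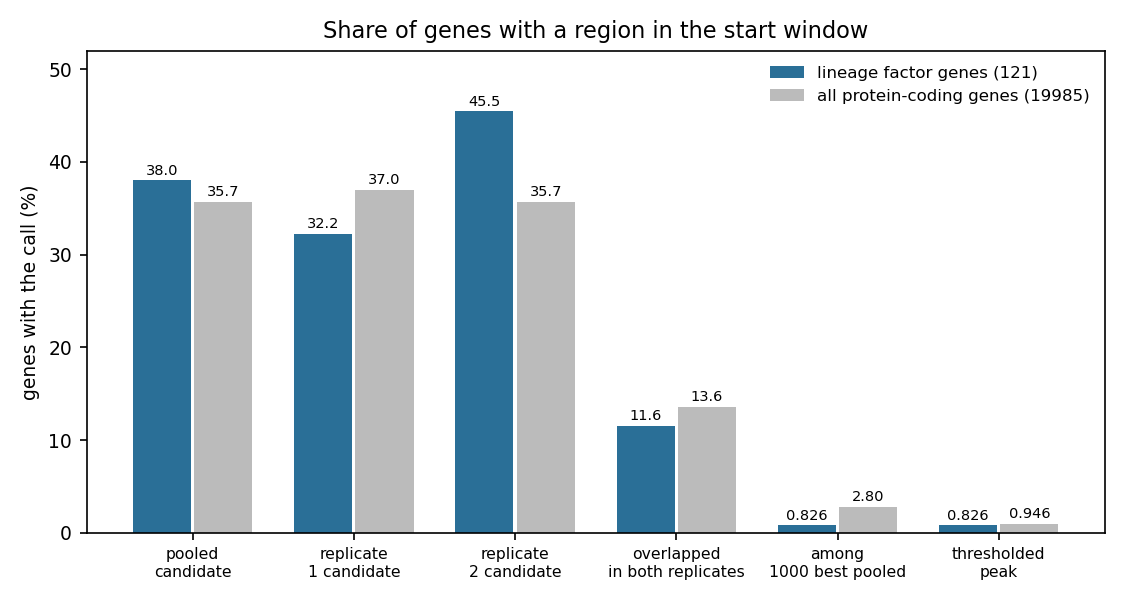
Percentage of genes with each kind of region in the start window, for the 121 lineage factor genes (blue) and all 19985 protein-coding genes (grey). The pooled shares are 38% and 35.7%, and the replicates put the members below the background in replicate 1 (32.2% and 37%) and above it in replicate 2 (45.5% and 35.7%).

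ceh-38 (WBGene00000459) encodes a homeodomain factor of the ONECUT class. Its thresholded peak lay on ce11 at chrII:6951493-6951848, with the summit 145 bp downstream of the gene start (6951526, plus strand), inside the annotated 5′ untranslated region. That summit lay 5 bp from the nearest annotated ceh-38 transcript start. The signal was 33.1 in the pooled list (rank 202), 11.7 in replicate 1 (rank 2284) and 19.95 in replicate 2 (rank 110). The region stood far higher in the replicate 2 list than in the replicate 1 list. The malt-1 gene, read in the opposite direction, starts 226 bp upstream of ceh-38, but the ceh-38 start is the nearest to the summit. Its −log10 q, 2.61, is a ceiling that 203 pooled candidates share, and the next member, ceh-20, had 0.64.

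Of the homeobox genes, 31 of 63 had a pooled candidate (49.2%, against 35.7% of all protein-coding genes). That excess was seen in replicate 2 (52.4%, against 35.7%) but not in replicate 1 (34.9%, against 37%). The best pooled candidate was overlapped by a candidate of both replicates at 14.3% of homeobox genes, against 13.6%. Candidates of the pooled list and of both replicates stood in the start window at 19%, against 15.2%. The shares of the families were not tested against each other. ceh-20, a PBC-class partner of Hox proteins, had the second largest signal of all members at 19.5 (rank 1230), 805 bp upstream of its start. That region had a signal of 9.09 in replicate 1 (rank 6307) and 6.98 in replicate 2 (rank 8696), so it was middling in both lists. ceh-13, the worm's labial-type Hox gene, had 13.5 (rank 5965), 662 bp upstream, with 4.99 in replicate 1 and 7.21 in replicate 2. Its replicate 1 rank, 28585, was close to the end of that list.

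Several homeobox candidates were placed unequally in the replicates or were overlapped in 1 replicate alone. The NK-2-type gene ceh-27 had a pooled signal of 16.2, with 5.20 in replicate 1 (rank 26651) and 11.1 in replicate 2 (rank 1319). The ONECUT gene ceh-39, which acts in counting X chromosomes, had 16.1, with 11.6 in replicate 1 (rank 2333) and 4.996 in replicate 2 (rank 19875). ceh-27 thus stood higher in the replicate 2 list than in the replicate 1 list, where it was near the end, and ceh-39 stood higher in the replicate 1 list. The pooled regions of ceh-45, a goosecoid-type gene (16.3), ceh-79 (14.8) and ceh-30, a Bar-type gene (13.7), were overlapped in replicate 2 alone. That of ceh-54 (15.1) was overlapped in replicate 1 alone, where it ranked 611. At 2.45% of protein-coding genes a replicate 1 candidate with its summit in the start window was among the 1000 best. Of the 121 members ceh-54 was the 1 (0.826%). For replicate 2 the background was 2.25%, and ceh-38 was the 1 member. The region at ceh-88 (16.2) was overlapped in neither.

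No pooled candidate stood in the start window of ceh-22, an NK-2 factor of pharyngeal muscle, ceh-36, an Otx-type factor, ceh-43, the Distal-less factor, or ceh-51, a mesoderm factor of the MS lineage. Replicate 2 alone had a candidate there for ceh-22 (4.19), ceh-43 (5.17) and ceh-51 (5.25), and neither replicate had one for ceh-36.

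Of 10 GATA-type genes, which include the endoderm cascade, 1 had a pooled candidate in its start window, against 35.7% of all protein-coding genes, and 7 had one in the gene body or 5 kb upstream, against 86.5%. The 1 was elt-6, which acts with egl-18 in epidermal seam cells. Its region had a signal of 16.9 (rank 2340), lay 722 bp upstream and fell inside the neighbouring gene egl-18. In replicate 1 it had 13.1 (rank 1356), and in replicate 2 no candidate overlapped it. No list had a candidate in the start window of med-1, end-1, end-3, elt-2, elt-1 or elt-3 as set by the gene start. Counted from any annotated transcript start, elt-3 had a pooled candidate 144 bp downstream of 1 (15.1, rank 3736). For med-2 replicate 2 alone had one, near the end of its list (4.36, rank 25432). For elt-7 both replicates had weak candidates at different places, -161 bp from the start in replicate 1 (6.62) and -585 bp from the start in replicate 2 (5.71), and the pooled list had none. med-1 and med-2 are near-identical copies, so where reads from either were placed is uncertain.

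Of the single regulators, pha-4 had a pooled candidate and skn-1, pal-1 and pie-1 had none in any list at the gene start. Counted from any annotated transcript start, the pooled list held a candidate for skn-1 at -371 bp (14.7, rank 4186) and for pal-1 at 31 bp downstream (12.8, rank 7457), and none for pie-1. The pha-4 region (chrV:20752555-20752910) had a pooled signal of 15.04 (rank 3847), 319 bp upstream, with 8.62 in replicate 1 (rank 7601) and 10.2 in replicate 2 (rank 1978). The summits in the replicates lay at -325 bp and -306 bp, so both libraries placed it at the same position, 53 bp from the start of the non-coding gene F38A6.6. It exceeded 79.8% of the 7138 protein-coding genes with a candidate.

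Among 19 T-box genes 6 had a pooled candidate (31.6%, against 35.7% of all protein-coding genes). tbx-8, which acts with tbx-9 in the shaping of muscle and epidermis, had the largest at 16.8 (rank 2412), 661 bp upstream; replicate 2 held it at 4.58 (rank 23325) and replicate 1 not at all. tbx-9 had none in the pooled list and weak candidates in replicate 1 (7.20) and replicate 2 (5.46). Of the pair tbx-37 and tbx-38, which act redundantly in mesoderm from the ABa cell, only tbx-38 had a pooled candidate in its start window, with a signal of 11.0, 113 bp upstream. tbx-34 had 13.3 at a summit inside the gene wht-8, overlapped by candidates with 5.01 in replicate 1 and 10.2 in replicate 2. The replicate 2 summit lay outside the start window, where the best replicate 2 candidate had 6.27. tbx-2, a pharyngeal muscle factor, had a weak candidate in replicate 2 alone (4.71).

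Among 25 bHLH genes 7 had a pooled candidate (28.0%, against 35.7% of all protein-coding genes). hlh-10 had the largest, 15.5 (rank 3358), 938 bp upstream. The strongest overlapping candidate had 15.01 in replicate 1 (rank 676) and 6.10 in replicate 2 (rank 12784). The summit of that replicate 1 candidate lay outside the start window. Inside the window the best replicate 1 candidate of hlh-10 had 6.85 (rank 14886), at -922 bp. hlh-1, the MyoD homologue of body wall muscle, had 12.9 (rank 7247), 187 bp upstream, with 8.58 in replicate 2 at the same distance and none in replicate 1. hlh-2, the E-protein partner of other bHLH factors, had a weak candidate in replicate 1 alone (6.15), and hlh-8, the Twist homologue, had none.

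**Figure D3:**
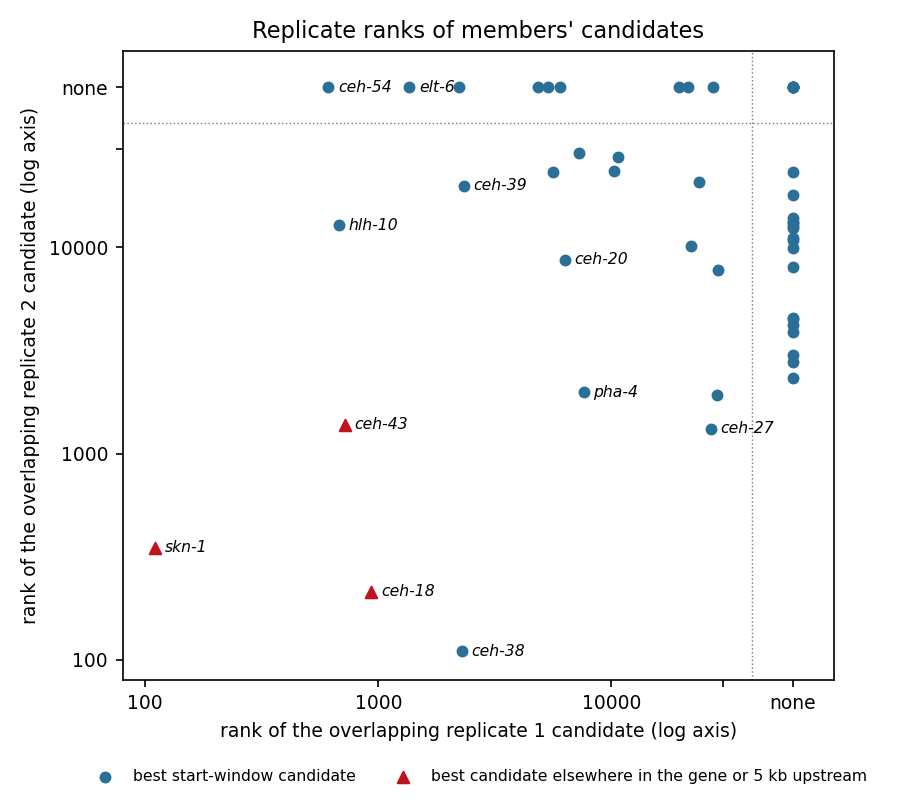
Rank in replicate 1 against rank in replicate 2 (log axes, rank 1 is the largest signal) of the candidate that overlaps the best pooled start-window candidate of each member (circles), with points beyond the dotted lines where a replicate had none. Triangles are the best candidates elsewhere in skn-1, ceh-18 and ceh-43; skn-1 ranked 110 and 349.

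Most summits near members lay upstream of the start, 33 of 46 (71.7%, against 83.0% of all protein-coding genes with a candidate), at a median position relative to the start of -223.5 bp, against -328 bp. By annotation, 24 summits were intergenic, 6 in the member's own 5′ untranslated region, 4 in its coding exons, 3 in its introns and 9 inside another protein-coding gene. The member's start was the nearest protein-coding start in 42 of 46 cases, and the nearest start of any kind in 33. When a region went only to the nearest coding start, 34.7% of members had a candidate, against 29.7% of all protein-coding genes. Non-coding RNA genes were nearest in 7. The annotation counts and those for starts of any kind are not given over all protein-coding genes. Whether they are particular to members therefore cannot be said. Few members had an oppositely read coding gene starting within 1000 bp upstream, 7.44% against 17.7% of all protein-coding genes; of these 9 members, 6 had a candidate (66.7%, against 46.2% of all protein-coding genes with such a neighbour). By chromosome, the share of members with a candidate was below that of all protein-coding genes on X (8 of 31, 25.8%, against 36.5%), III (9 of 24, 37.5%, against 41.8%) and IV (5 of 17, 29.4%, against 34.6%). It was above it on I (5 of 10, against 40.2%), II (11 of 21, 52.4%, against 36.4%) and V (8 of 18, 44.4%, against 29.8%).

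**Figure D4:**
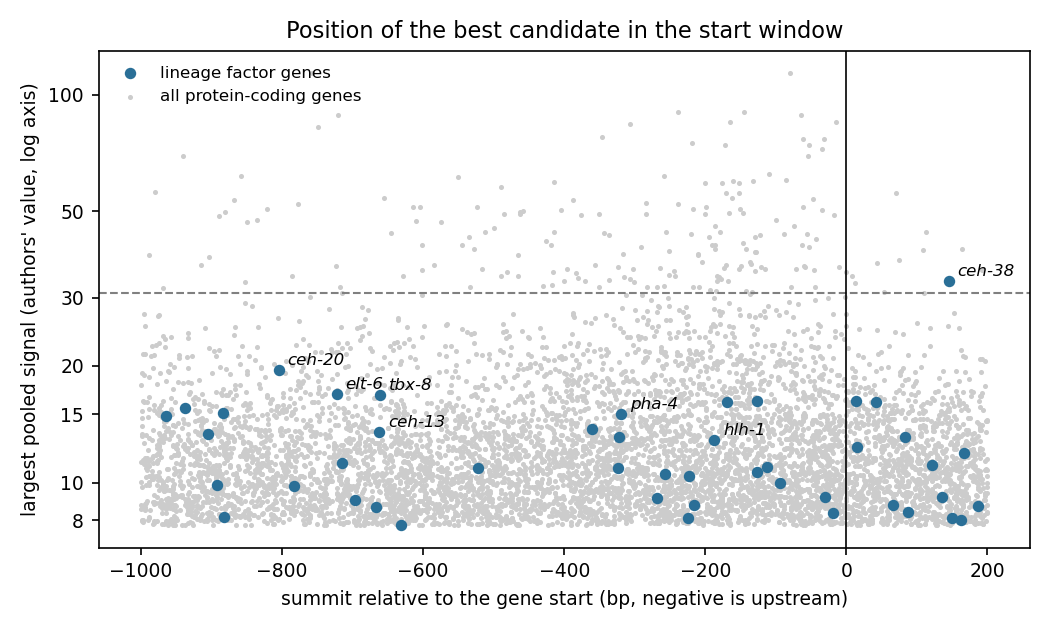
Position of the summit relative to the gene start (bp) against the largest pooled signal (log axis), for lineage factor genes (blue) and all protein-coding genes (grey); the dashed line is the lowest thresholded peak. ceh-38 lies 145 bp downstream at 33.1, and the strongest upstream member candidate is that of ceh-20, 805 bp upstream at 19.5.

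Because many lineage genes are controlled from introns and distant upstream stretches, the gene body and 5 kb upstream were also searched. There, 106 members (87.6%) had a pooled candidate, against 86.5% of all protein-coding genes. Of these, 8 (6.61%, against 8.17%) had 1 of the 1000 largest pooled signals, and 2 (1.65%, against 2.29%) had a thresholded peak, ceh-38 and hlh-27. The hlh-27 peak (signal 59.3) was 3386 bp upstream and 1 bp from the start of the spliced leader RNA gene sls-2.2.

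The best candidate was overlapped by 1 of the 1000 best of both replicates at 3 members (2.48%, against 2.25%). They were hlh-27 with the sls-2.2 peak, skn-1 and ceh-18. In skn-1 a candidate lay in an intron, 3078 bp downstream of the gene start, with a pooled signal of 26.9 (rank 340), 24.6 in replicate 1 (rank 110) and 14.8 in replicate 2 (rank 349). It was high in both libraries, higher placed in each than any start-window candidate of a member except that of ceh-38 in replicate 2. Its summit lay 1701 bp from the nearest annotated skn-1 transcript start and 12 bp from the start of the non-coding gene T19E7.26. In ceh-18, a POU-class gene known for its part in the gonadal sheath and oocyte, an intron candidate 7766 bp downstream of the start had 29.6 (rank 266), 14.1 in replicate 1 (rank 933) and 16.7 in replicate 2 (rank 213). The nearest start to it was that of the non-coding gene ZC64.13, 326 bp away. Upstream of ceh-43, 1445 bp from its start, a candidate had 26.05 (rank 388), 14.8 in replicate 1 (rank 719) and 10.996 in replicate 2 (rank 1376). Its summit lay 102 bp from the start of the non-coding gene C28A5.8.

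The other 3 of these 8 members were elt-6, hlh-11 and hlh-13. The elt-6 candidate, 2163 bp upstream inside egl-18, had 23.8 (rank 543), with 18.4 in replicate 1 and 8.01 in replicate 2. The hlh-11 candidate (20.8) lay 66 bp from the start of the centromeric histone gene hcp-3, and the hlh-13 one (20.6) lay 197 bp from the start of F48D6.4. Of the genes named above, hlh-1 had a stronger region 2176 bp upstream (19.2, with 8.55 in replicate 1 and 12.5 in replicate 2) than in its start window. The best signals were 19.6 for hlh-2 (4069 bp upstream), 18.03 for pal-1 (in a coding exon), 17.5 for tbx-2 (in a coding exon), 17.3 for hlh-8, 16.7 for ceh-36 and 15.1 for elt-3. They were 11.4 for pie-1, 11.1 for end-3 and tbx-37, 11.04 for elt-1, 10.1 for end-1 and med-2, and 8.95 for elt-7. Some of these summits lay inside another protein-coding gene: hlh-8 (in K07E3.1), end-3 (in ddx-17), med-2 (in K04C2.7) and elt-7 (in C18G1.9). No pooled candidate was found in the body or 5 kb upstream of elt-2 and med-1.

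The skn-1 sequence held CTGCGTCT starting at base 100 of 201, that is, on its summit. That element occurred in 2.39% of summit windows of all 28574 pooled candidates and in 9.10% of those of the 1000 with the largest signal. None of the 46 start-window candidates of members held it, against 3.51% of the 6215 candidates behind all protein-coding genes. The skn-1 region belongs to the search of gene body and 5 kb upstream. There, 2 of 102 member windows held the element (1.96%, against 2.76% of those of all protein-coding genes). The ceh-20 sequence held AGGTCA, and the pha-4 sequence a run of GAGAGAGA matches and an AGGTGT that overlaps a CANNTG. The off-summit ceh-38 stretch held GATAA once, and its GC content of 25% is not that of a summit window.

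Over the 46 members' candidates, motif shares were near those of the 6215 candidates behind all protein-coding genes for GATAA (39.1%, against 39.4%) and CANNTG (56.5%, against 57.2%). They were 6.52% against 4.22% for CACGTG, 4.35% against 6.08% for AGGTGT, 2.17% against 2.59% for TGTTTAC, 4.35% against 6.03% for AGGTCA and 6.52% against 3.25% for GAGAGAGA. No member window held TAATTA, against 8.72%. At the best candidates in the gene body or 5 kb upstream, TAATTA was in 7 of 102 member windows (6.86%, against 8.15% of those of all protein-coding genes) and AGGTCA in 11 (10.8%, against 5.69%), so both shares depended on the search space. Over all pooled candidates the shares were 36.9% for GATAA, 58.2% for CANNTG, 4.33% for CACGTG, 8.30% for TAATTA, 6.64% for AGGTGT, 2.35% for TGTTTAC, 5.70% for AGGTCA and 2.88% for GAGAGAGA. Median GC content of the windows was 38.3% for members and 37.3% for all protein-coding genes.

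A list of 51 other genes of early lineage choice, such as polarity, Wnt and Notch components and Hox genes, was picked by hand. Earlier results of these data were known when it was picked, so its shares are description only. A pooled candidate stood at 21 of them (41.2%, against 35.7% of all protein-coding genes) and 1 of the 1000 best at 5 (9.80%, against 2.80%). The list's 1 thresholded peak (1.96%, against 0.946%) was at spn-4, a maternal RNA-binding regulator of early blastomere fates. Its signal was 35.5, with 25.5 in replicate 1 (rank 99) and 12.1 in replicate 2 (rank 886). The others were sys-1, a beta-catenin of the Wnt asymmetry pathway (21.7), mex-1, a maternal zinc finger protein (21.4), the Hox gene mab-5 (21.1) and mom-1, the Porcupine homologue needed for Wnt secretion (20.7). The pooled region was overlapped by a candidate of both replicates at mab-5, mom-1 and mex-1, and of replicate 1 alone at sys-1. Summits lay at -997 bp for mex-1 and -927 bp for mab-5, near the window's edge, and at -396 bp for spn-4, -205 bp for sys-1 and -94 bp for mom-1.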

How the data were processed

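Embryos carrying eGFP-tagged NHR-12 were analysed by ChIP-seq in 2 biological replicates of 1 group. The authors deposited narrowPeak lists without a header, holding per region a signal from their peak caller and a −log10 q value. Description files deposited beside the lists state that replicate candidates came from each replicate's alignments and a further file whose kind they do not name, pooled candidates from both replicates and that file, and the thresholded peaks from these 3 lists by IDR (irreproducible discovery rate). Aligner, peak caller, versions and read depth are not given in the sources used here.

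Analysis was restricted to 4 ce11 lists. Gene starts came from Ensembl release 115 (WBcel235, the same assembly as ce11) and bases from RefSeq. For each protein-coding gene the region with the largest signal and a summit from 1000 bp upstream to 200 bp downstream of the start was taken with Python 3.11.15 and pandas 2.3.3. Replicate regions counted as overlapping from 1 bp, wherever their own summit lay, and the one with the largest signal was taken. The code recovered 100.0% of planted windows when tested on simulated data with 5000 genes. Members, lists and motifs were chosen with earlier results of these data known, and no statistical test was made. Named were members with a peak, the 15 with the largest pooled signal, members among the 1000 best of both replicates, 25 fixed lineage genes, and other lineage genes among the 1000 best. ceh-18, hlh-11, hlh-13 and hlh-27 were named after their values were seen, and so was the search of gene bodies added. Alternatives were other windows, any annotated transcript start, thresholds and single replicates.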

Additional observations from a re-analysis of the deposited data

How the results depend on the processing

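The number of members with a pooled candidate, 46, was 26 in a window of 500 bp upstream to 100 bp downstream (21.5%, against 21.7% of all protein-coding genes) and 106 over gene bodies and 5000 bp upstream, a search chosen after seeing the data. It was between 39 and 55 with a single replicate. The narrow window gave 3 in place of 18 members with candidates of all 3 lists (2.48%, against 7.25% of all protein-coding genes) and 7 in place of 14 overlapped by both replicates (5.79%, against 8.68%). The window of 2000 bp upstream gave 36 (29.8%, against 28.9%) and 25 (20.7%, against 19.9%). With any annotated transcript start, 52 members had a candidate (43%, against 39.6%), elt-3, skn-1 and pal-1 among those gained. ceh-38, whose summit is 145 bp downstream of the gene start, lies outside the narrow window as set from that start. The peak count and the count among the 1000 best were therefore 0 there. That summit is 5 bp from the nearest annotated ceh-38 transcript start. The peak count was also 0 for the better-ranked part of the peaks. A single replicate has no thresholded peaks, so its 249 best candidates were counted in their place. They gave 0 members without replicate 2 and 1 without replicate 1. The count among the 1000 best was 2 with the 2000 bp window, 2 for the 2000 best and 8 over gene bodies and 5000 bp upstream, where 2 members had a peak. The median signal of 10.95 was 7.32 without replicate 2 and 6.18 without replicate 1, on those lists' own scales, where all protein-coding genes had 7.22 and 6.04. Of 68 values of 17 named members under other windows and starts, 7 were lost because no candidate was left: ceh-38, ceh-54, ceh-79, hlh-10, tbx-34 and tbx-8 in the narrow window, and tbx-34 when a region went only to the nearest coding start. Another 2 moved by more than the SD of the replicates' values, ceh-13 to 9.14 and ceh-20 to 13.6 in the narrow window. That SD rests on 1 signal per replicate list, and these can be different regions. It was taken as 0 where fewer replicates had a candidate, so it is only a rough yardstick. At elt-6, where the replicate regions differed, the signal went from 16.9 to 13.4 in the narrow window without passing it. No paired analysis was possible because there is 1 group. Depth is unknown, so a missing candidate does not show absence of binding.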

Other observations

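Genes of the family to which NHR-12 belongs (nhr-) had a pooled candidate in 83 of 269 cases (30.9%, against 35.7% of all protein-coding genes), and 35 (13%, against 13.6%) had their best candidate overlapped by both replicates. Zinc finger, bZIP, forkhead, Sox and LIM-type genes (ztf-, zip-, fkh-, sox- and lim-) had a pooled candidate in 25 of 54 cases (46.3%, against 35.7%). None of the 54 had a thresholded peak, against 0.946% of all protein-coding genes. Median largest pooled signals were 11.2 for nhr- genes and 10.5 for the second set, against 11.06 for all protein-coding genes.

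At 28 members without a pooled candidate in the start window a replicate had one, and at 6 of these both did: elt-7, tbx-9, hlh-31, ceh-41, ceh-58 and ceh-91. These were weak. The best ranked 4341 in replicate 1, at hlh-31, and 4943 in replicate 2, at ceh-58. Counts of this kind over all protein-coding genes are not given here.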
